A study of Homo sapiens with 9 samples.

Results

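MDA-MB-453 is an established human breast cancer cell line that is assigned to a luminal, apocrine subtype of triple-negative breast cancer (TNBC). The values described here are the baseline transcriptome of these cells in attached culture: the 3 libraries of attached cells that received vehicle, out of 9 libraries in the series. They were chosen by their labels and not by any measured value, and no comparison between culture conditions was made. The study grew the cells attached or in forced suspension on poly-HEMA, and the suspended cells received vehicle or AT-0174, an inhibitor of the tryptophan-degrading enzymes TDO2 and IDO1. The attached cells carried the genotype label WT, were kept in DMEM with fetal bovine serum, received DMSO as vehicle and were collected at 48 hours. One line was used, and the labels call the replicates biological triplicates without saying whether they were thawed or seeded on separate days, so the SD measures the spread between these 3 cultures of 1 line.

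Luminal cells line the ducts of the breast and carry simple keratins, E-cadherin and a set of transcription factors led by FOXA1 and GATA3. Basal or myoepithelial cells lie outside them and carry other keratins, p63 and contractile proteins. Tumors of this subtype lack the estrogen and progesterone receptors but keep a luminal program in which FOXA1, which opens chromatin for other factors, acts on genes of apocrine differentiation and lipid metabolism.

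Levels are given in TPM, a scale of transcript abundance that divides the estimated reads of each transcript by its effective length and sets the sum of every library to the same total, so that levels of different genes in 1 library can be compared. The 3 libraries held 38658156, 36649997 and 39931024 estimated counts. For replicates 1, 2 and 3, reads were assigned to 21188, 21025 and 21531 gene symbols. A gene with no read may still have up to 0.0776, 0.0819 or 0.0751 CPM (counts scaled to 1000000 per library), the limit that 3 counts set in each library, and this limit covers counting error only. Between pairs of libraries Pearson's r of log2 TPM was 0.993 to 0.994 over 12545 to 12575 genes at 1 TPM or more in both, which describes agreement across genes and is no test. Squared differences of counts were set against those that sampling noise gives (chi-square per degree of freedom, 1 for sampling noise alone). The value was 3.04 for replicates 1 and 2. For replicate 3 against them it was 10.6 and 11.5, so each pair differed by more than counting noise. The value grows with read depth and is not a fold difference. Replicate 3 stood apart in its mitochondrial transcripts: the 37 genes of the mitochondrial genome made up 16.8%, 16.3% and 19.6% of TPM. Each of the 13 mitochondrial protein genes was highest in replicate 3. Without the mitochondrial genome the chi-square per degree of freedom of replicate 3 against replicates 1 and 2 was still 6.37 and 6.70.

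Attached MDA-MB-453 cells had 12390 genes at 1 TPM or more in each of the 3 libraries, of which 11024 were protein-coding and 836 were long non-coding RNA genes. The protein-coding genes at this level were 55.3% of the 19931 listed. At 10 TPM or more in every library the share of protein-coding genes was 39.5%, and at 100 TPM or more it was 8.04%. These 3 shares are the background against which the gene lists below are read. At the other end, 4701 protein-coding genes had no read in any of the 3 libraries. The levels were reproducible: over 8428 genes with a mean of at least 10 TPM, the median coefficient of variation was 5.09%.

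**Figure D1:**
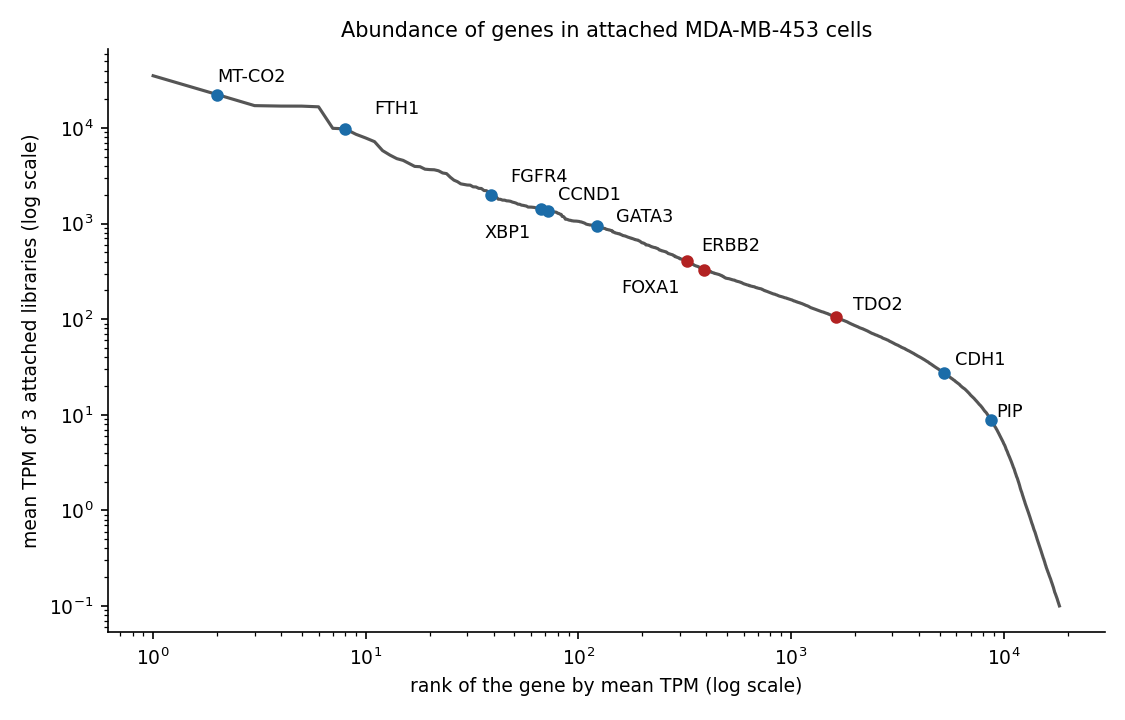
Mean TPM of 3 attached libraries (log scale) against the rank of each gene (log scale), drawn for genes with a mean of 0.1 TPM or more. Red points mark FOXA1, ERBB2 and TDO2, at ranks 392, 325 and 1628, and blue points mark other named genes, among them FGFR4 at rank 39.

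The most abundant RNAs encoded subunits of the respiratory chain and ATP synthase from the mitochondrial genome, iron storage, translation and glycolysis. The mitochondrial genome gave 17.6% ± 1.77 (SD, n = 3) of TPM, although the same genes took 8.19% ± 0.984 of the CPM, which are not divided by length. MT-ATP8, an ATP synthase subunit, ranked first with 35276, 32880 and 37578 TPM. It is a short gene with 59934 to 74548 estimated counts, against 557246 to 774839 for MT-CO1. Its rank thus rests on division by a short effective length. It also overlaps MT-ATP6 (17164 TPM ± 2300), so its level depends in part on how reads in the overlap were assigned. MT-ND4L, which ends at base 10766, overlaps MT-ND4, which starts at base 10760, by a few bases only. MT-CO2, a subunit of cytochrome c oxidase, followed with 22424 TPM ± 2302. MT-CO1, MT-CO3 and MT-ND4 lay within 16676 to 16974 TPM, and their means differed by less than the SD of any of them. MT-ND6, the 1 protein gene on the other mitochondrial strand, had 497 TPM ± 130. Replicate 3 was the highest of the 3 for all of these genes.

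Among nuclear genes, the ferritin heavy chain gene FTH1 had 9815 TPM ± 169, with 9656, 9993 and 9797 TPM in the 3 libraries. EEF1A1, a translation elongation factor, followed at 4787 TPM ± 241, then RPS2, PTMA and TPT1 at 4587, 4260 and 3713 TPM. The 84 genes of cytosolic ribosomal proteins together gave 9.66% ± 0.433 of TPM. The glycolytic genes GAPDH and ALDOA had 3390 TPM ± 184 and 2567 TPM ± 94.6. MTATP6P1, a nuclear copy of mitochondrial sequence, was listed at 3940 TPM ± 252, and its reads cannot be told apart with certainty from those of the mitochondrial genes it copies.

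A small number of genes made up much of the library. The 10 most abundant genes gave 16.2% ± 1.52 of TPM, the 100 most abundant 34.5% ± 1.15 and the 1000 most abundant 64.7% ± 0.397. All of these shares were highest in replicate 3, with 15.5%, 15.1% and 17.9% for the 10 genes and 33.9%, 33.7% and 35.8% for the 100 genes. The genes ranked 31 to 100 included ribosomal, cytoskeletal and RNA-binding protein genes and several genes of growth and differentiation. FGFR4, a receptor tyrosine kinase for fibroblast growth factors, had 2003 TPM ± 31.4. SLC9A3R1, a scaffold protein under the apical membrane, had 2210 TPM ± 73.7, and CRABP2, which carries retinoic acid, had 1537 TPM ± 29.9. PEG10, an imprinted gene derived from a retrotransposon, had 1464 TPM ± 29.1, and CCND1, the cyclin that drives entry into S phase, 1427 TPM ± 49.9. FABP7, a fatty acid binding protein, had 1092 TPM ± 91.7 and the epithelial calcium-binding protein gene S100A14 had 1062 TPM ± 45.1.

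The 3 genes given as markers of these cells were all well above the level at which a gene counted as expressed. FOXA1 had 333, 331 and 321 TPM (mean 328 ± 6.62). ERBB2, which encodes the receptor tyrosine kinase HER2, had 398, 400 and 407 TPM (mean 402 ± 4.83). TDO2, the enzyme that opens the indole ring of tryptophan, had 109.9, 104.04 and 100.1 TPM (mean 105 ± 4.91). ERBB2 was above FOXA1 and FOXA1 above TDO2 in each library, and the ranges of the 3 genes did not overlap. In a bulk library a level of this kind cannot tell many cells with little RNA from few cells with much, which holds for every gene below. For TDO2 the paper describes uneven expression between cells of this line, with a high level in a minority of them.

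The promoters of these 3 genes differed in base composition. They are shown from 250 bases before to 50 bases after the start of the Ensembl canonical transcript in GENCODE release 44, on GRCh38 and on the strand of the gene, with capitals for matches to any of 4 motifs on either strand. The motifs searched were TATAAA, the core of the TATA box, and GGGCGG, the GC box that Sp1 binds. The others were CCAAT and the forkhead motif TGTTTAC. None of the motifs contains another.
FOXA1 (chr14:37595200-37595499, minus strand): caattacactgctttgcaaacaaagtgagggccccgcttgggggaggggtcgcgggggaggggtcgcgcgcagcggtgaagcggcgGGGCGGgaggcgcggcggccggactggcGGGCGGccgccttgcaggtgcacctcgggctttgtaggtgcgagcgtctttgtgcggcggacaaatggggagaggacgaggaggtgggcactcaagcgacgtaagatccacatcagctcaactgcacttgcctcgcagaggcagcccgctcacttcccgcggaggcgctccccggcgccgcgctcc
ERBB2 (chr17:39699814-39700113, plus strand): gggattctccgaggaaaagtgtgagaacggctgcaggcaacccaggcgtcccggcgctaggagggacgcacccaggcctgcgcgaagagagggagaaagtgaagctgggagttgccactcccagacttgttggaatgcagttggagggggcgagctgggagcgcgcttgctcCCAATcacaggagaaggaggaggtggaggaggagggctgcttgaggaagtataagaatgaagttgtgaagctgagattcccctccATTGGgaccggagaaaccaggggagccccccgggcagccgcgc
TDO2 (chr4:155903446-155903745, plus strand): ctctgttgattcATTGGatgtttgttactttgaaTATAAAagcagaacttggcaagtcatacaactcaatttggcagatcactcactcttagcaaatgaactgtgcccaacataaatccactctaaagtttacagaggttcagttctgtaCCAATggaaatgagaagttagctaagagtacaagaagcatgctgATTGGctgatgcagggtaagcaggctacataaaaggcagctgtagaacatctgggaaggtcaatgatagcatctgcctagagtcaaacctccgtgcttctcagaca
FOXA1 held 34 CG dinucleotides and 2 GC boxes, and ERBB2 held 15 CG dinucleotides and 2 CCAAT boxes. TDO2 held 1 CG dinucleotide, 3 CCAAT boxes and a TATAAA match 216 bases before the start. The transcript whose start defines each window was also the one with the largest share of the gene's TPM in these cells: FOXA1-201 with 57.7% ± 1.36, ERBB2-201 with 63.3% ± 0.482 and TDO2-208 with 96.3% ± 0.608. A motif match describes the letters of the window and does not show that a factor binds there.

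Luminal transcription factors were present nearly as a set. Of 17 factors in the list, 16 were at 1 TPM or more in every library, 15 at 10 TPM or more and 8 at 100 TPM or more, against 55.3%, 39.5% and 8.04% of protein-coding genes. XBP1, a factor of secretory cells and of the unfolded protein response, led the list with 1413, 1351 and 1326 TPM. GATA3, which maintains luminal identity, had 903, 985 and 959 TPM. SPDEF, an ETS factor of secretory epithelium, had 309, 311 and 309 TPM, a spread of 1.13 TPM (SD). The AP-2 factors TFAP2B and TFAP2A were at 210 TPM ± 4.98 and 208 TPM ± 7.07 and were not separated by their spread, while the third AP-2 member of the list, TFAP2C, had 37.2 TPM ± 2.41. CREB3L4 and EHF followed at 185 and 154 TPM. ELF5, the factor of milk-producing alveolar cells, was the exception, with 1 estimated count in replicate 3 and none in the others.

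Luminal structural genes were as prominent as their factors. Of 17 luminal epithelial genes, 15 were at 1 TPM or more in every library and 10 at 100 TPM or more. Of all protein-coding genes 55.3% and 8.04% were at these levels. The simple keratins led: KRT19 had 957, 913 and 841 TPM, KRT8 795, 799 and 779 TPM, KRT18 730, 736 and 695 TPM, and KRT7 448, 458 and 436 TPM. KRT8 and KRT18, whose proteins pair in the same filament, were at similar levels, with KRT8 above KRT18 in each library. These 4 genes made up 99.1% ± 0.0454 of the TPM of the 54 keratin genes listed. The adhesion molecule gene EPCAM had 310 TPM ± 15.8 and the splicing regulator ESRP2 213 TPM ± 14.0, with ESRP1 at 87.3 TPM. RAB25, a small GTPase of epithelial cells, had 144 TPM ± 4.27, and CD24 had 122 TPM ± 12.04.

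Several genes of the luminal epithelial list were much lower than these. CDH1, which encodes E-cadherin, had 25.8, 28.1 and 28.7 TPM. The coding transcript CDH1-201 has 4811 bases and the retained-intron transcript CDH1-208 has 282. TPM divides reads by effective length, so a short transcript can take a large share from few reads. CDH1-201 took 41.7%, 29.2% and 36.1% of the gene's TPM, and CDH1-208 took 10.8%, 27.9% and 21.0%. The SD of these shares was 6.27 and 8.56 percentage points, while the retained-intron transcripts of all genes together took 7.10%, 7.15% and 7.64%. MUC1, a membrane mucin of the luminal surface, had 1.61 TPM ± 0.142. PROM1 was at 0.0389 TPM, and KIT, a receptor of luminal progenitors, had no read in any library.

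**Figure D2:**
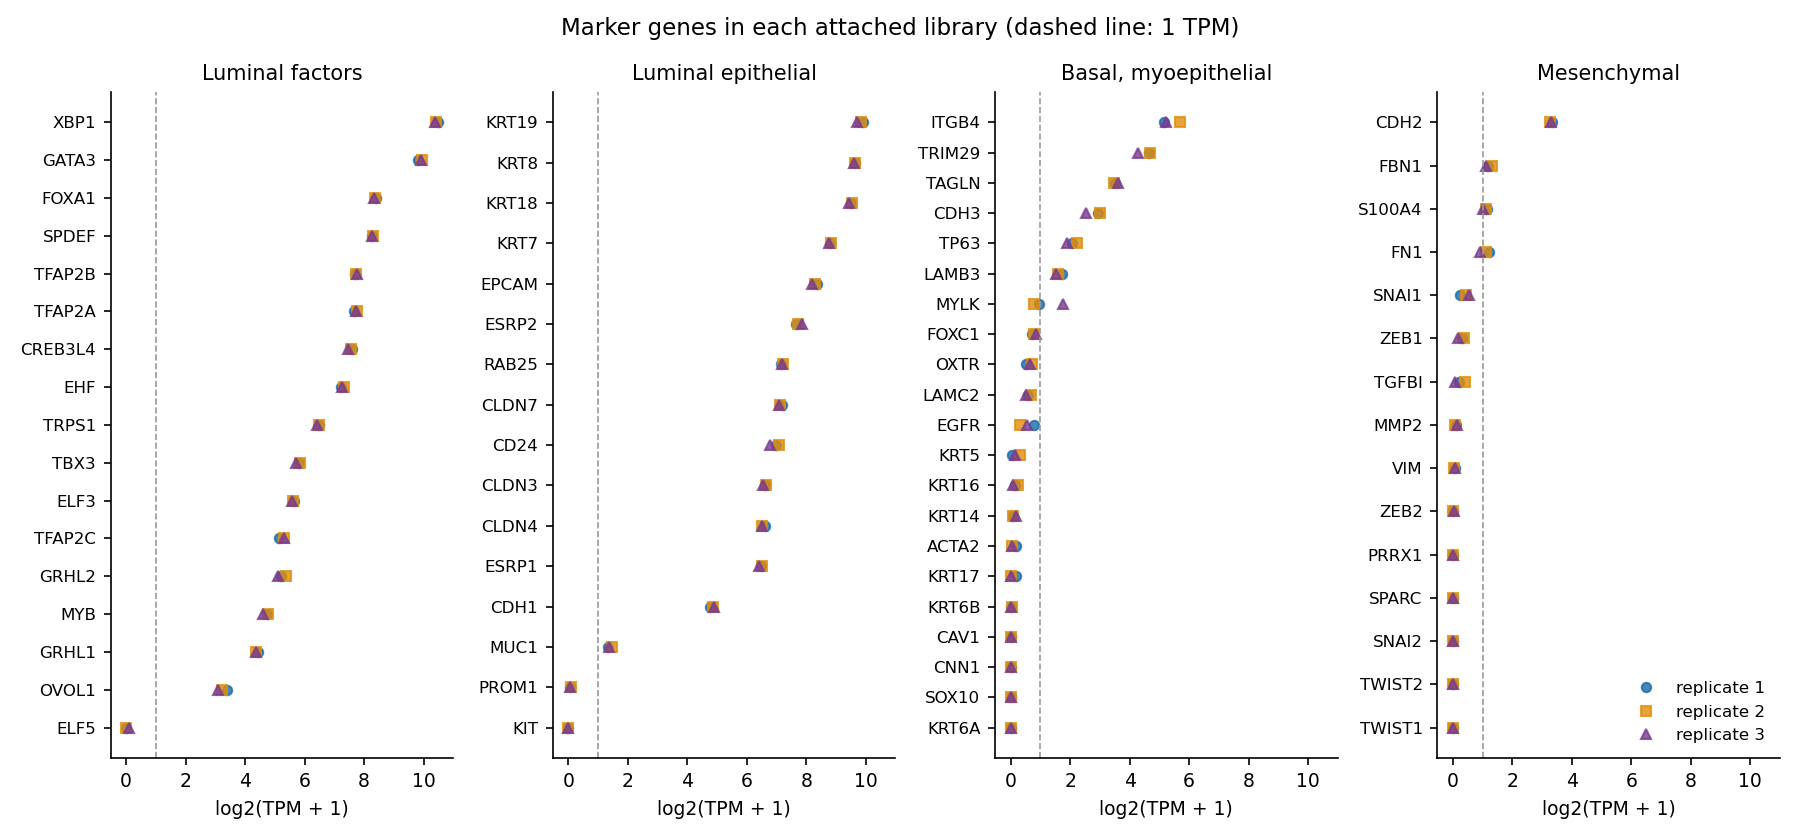
Level of each gene as log2(TPM + 1) in the 3 attached libraries, 1 row per gene and 1 symbol per replicate, for 17 luminal factors, 16 of 17 luminal epithelial genes, 21 basal or myoepithelial genes and 15 mesenchymal genes. The dashed line is 1 TPM, which 16, 14, 6 and 3 of the genes drawn reached in every library.

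On the TPM scale basal and mesenchymal genes gave the opposite picture. Of 21 basal or myoepithelial genes, 6 were at 1 TPM or more in every library and none reached 100 TPM. The 6 genes are 28.6% of the list, against 55.3% of protein-coding genes. At 1 CPM, which is not divided by length, the count was 11 of 21, while that of all genes went from 12390 to 12525. How far this list lies below all genes at a level of 1 thus depends on the scale. The highest was ITGB4, an integrin of hemidesmosomes, with 34.5, 50.7 and 36.0 TPM, followed by TRIM29 (22.4 TPM ± 3.59) and TAGLN (10.6 TPM ± 0.567). CDH3, which encodes P-cadherin, had 6.18 TPM ± 1.22, and TP63, which encodes the basal master factor p63, had 3.145, 3.695 and 2.699 TPM. The basal keratins rested on single reads: KRT5 had 2 to 3 and KRT14 1 to 2 estimated counts per library. KRT6A, SOX10, CNN1 and CAV1 had no read. MYLK, a kinase of contractile cells, crossed the level of 1 TPM, with 0.950, 0.714 and 2.37 TPM, while its estimated counts were 82 to 100 per library.

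Of 15 mesenchymal genes, 3 were at 1 TPM or more in every library. CDH2, which encodes N-cadherin, had 9.02, 8.58 and 8.82 TPM and gave 66.7% of the summed TPM of the list. FBN1 and S100A4 lay just above 1 TPM (1.31 ± 0.171 and 1.14 ± 0.111), and FN1 crossed it with 1.30, 1.16 and 0.863 TPM. VIM, the intermediate filament gene of mesenchymal cells, had 1 to 3 estimated counts per library. ZEB1, a repressor of E-cadherin, had 0.238, 0.299 and 0.132 TPM from 14 to 27 estimated counts, and SNAI1 had 0.328 TPM ± 0.131. SNAI2, TWIST1, TWIST2, SPARC and PRRX1 had no read in any library.

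The apocrine list was present in part. Of 32 apocrine and androgen-responsive genes, 14 were at 1 TPM or more in every library, which is 43.8% and lies below the share of all protein-coding genes, and the median member had 0.713 TPM. The list was uneven, with 6 members at 100 TPM or more in every library and 16 members under 1 TPM in every library.

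The abundant members of the apocrine list were genes of secretion and lipid metabolism. AGR2, a protein disulfide isomerase of secretory cells, had 844, 852 and 764 TPM, and FASN, fatty acid synthase, had 781, 778 and 834 TPM. AZGP1, a secreted glycoprotein linked to lipid breakdown, had 489 TPM ± 13.2. CRAT and ALCAM followed at 135 and 108 TPM. ABCC11, a transporter of apocrine glands, had 71.8 TPM ± 4.01 and MUCL1, a small breast mucin, 60.2 TPM ± 3.85. The androgen-responsive genes FKBP5 and TMPRSS2 had 31.5 and 15.8 TPM.

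Other genes that are used as apocrine markers were low or had no read. PIP, the prolactin-induced protein of apocrine fluid, had 10.0, 8.58 and 7.87 TPM, and TFF3 crossed 1 TPM with 1.28, 1.21 and 0.933 TPM. APOD had 5 to 9 estimated counts per library (0.319 TPM ± 0.133), and the mean of SCGB2A2, which encodes mammaglobin, was 0.0356 TPM. The kallikrein KLK3, which encodes prostate-specific antigen, had no read, nor did KLK11, AGR3 or SCGB1D2.

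Of 48 nuclear receptors, 25 were at 1 TPM or more in every library, 52.1% against 55.3% of protein-coding genes. They were led by the orphan receptor NR2F1 (169 TPM ± 3.07), followed by the vitamin D receptor VDR (85.5 TPM ± 1.66) and the fatty acid sensor PPARD (85.1 TPM ± 1.31). VDR and PPARD were not separated by their spread. NR2F6, NR1H2 and RXRA had 68.0, 56.4 and 52.1 TPM. The estrogen receptor gene ESR1 had 0 to 2 estimated counts per library and the progesterone receptor gene PGR 9 to 17 (0.136 TPM ± 0.101). NR3C1, the glucocorticoid receptor, had 4.63 TPM ± 0.653, and PPARG and HNF4A had no read.

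The labels call these cells triple-negative, a term that refers to tests for the estrogen receptor, the progesterone receptor and HER2. At the RNA level ESR1 and PGR were near 0, while ERBB2 ranked 325th of all genes. These values are RNA levels from attached cells, so they do not give a receptor status by protein or gene copy number. ERBB2 took 77.1% ± 0.420 of the TPM of the 4 ERBB receptors. ERBB3, its kinase-impaired partner, had 117, 121 and 118 TPM, while EGFR (0.477 TPM ± 0.242) and ERBB4 (0.449 TPM ± 0.124) were under 1 TPM in every library. Among the ligands of the list NRG3 and AREG were at 4.36 and 3.96 TPM, and NRG1, NRG4 and EREG had no read.

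**Figure D3:**
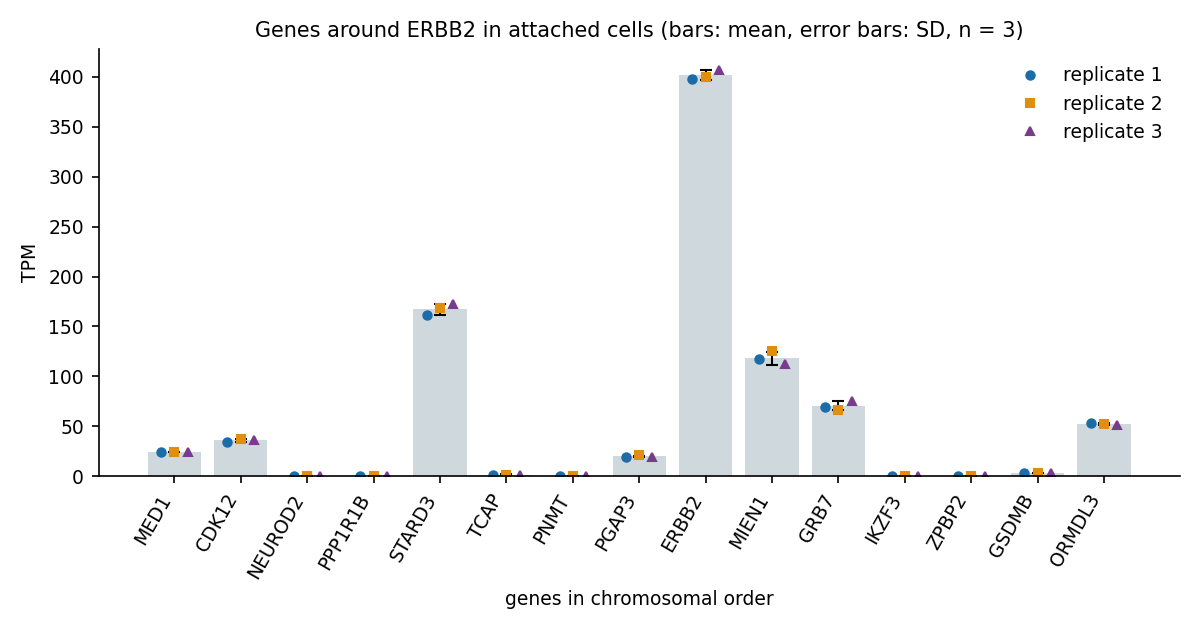
TPM of 15 genes around ERBB2 on chromosome 17, in chromosomal order at equal spacing. Bars are means of 3 attached libraries, error bars are the SD and points are the libraries. ERBB2 stands at 402 TPM, STARD3 at 167 TPM, MIEN1 at 118 TPM and GRB7 at 70.5 TPM. NEUROD2, PPP1R1B, PNMT, IKZF3 and ZPBP2 stand near 0.

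The genes that flank ERBB2 on chromosome 17 had uneven levels. ERBB2 lies at 39687914 to 39730426 on the plus strand of GRCh38. STARD3, a cholesterol transfer protein of endosomes on its centromeric side, had 162, 168 and 172 TPM, and GRB7, an adaptor that binds ERBB2, had 69.6, 66.4 and 75.5 TPM on the other side. MIEN1 had 118 TPM ± 6.52. It lies on the minus strand and overlaps the end of ERBB2, and the strand setting of the counting is not given in the sources used here, so reads in the overlap may be shared. PGAP3, on the minus strand at 39671122 to 39696797, overlaps the annotated start of ERBB2, so the same holds for its 19.8 TPM ± 0.812. Farther out CDK12 had 36.1 TPM, MED1 24.0 TPM and ORMDL3 52.3 TPM, while NEUROD2, PPP1R1B, PNMT, IKZF3 and ZPBP2 were below 0.1 TPM in every library. Of the 15 genes 10 were at 1 TPM or more in every library, 66.7% against 55.3% of protein-coding genes. DNA copy number was not measured.

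FGFR4 dominated the fibroblast growth factor receptors. It took 99.1% ± 0.0732 of the TPM of FGFR1 to FGFR4, with 2023, 1967 and 2019 TPM from 100026 to 111072 estimated counts. FGFR1 had 14.2 TPM ± 1.62, FGFR3 2.38 TPM ± 0.465 and FGFR2 1.99 TPM ± 0.216. KLB, the co-receptor through which FGFR4 answers to FGF19, was under 1 TPM in every library (0.266 TPM ± 0.0825). FGFRL1, a decoy receptor without a kinase, and the adaptor FRS2 had 16.5 and 12.9 TPM. The reads of FGFR4 were spread over 16 transcripts, led by FGFR4-207 (31.6% ± 0.308) and FGFR4-201 (26.1% ± 0.689), both protein-coding.

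The kynurenine pathway breaks tryptophan down to kynurenine and onward to NAD, and kynurenine activates the aryl hydrocarbon receptor AHR. In attached cells 12 of 20 genes of the list were at 1 TPM or more in every library. These were 6 of 13 enzymes, and 6 of 7 transporters, receptor genes and target genes. Of all protein-coding genes 55.3% were at this level, and the share of the list was close to it. The share of the enzymes lay below it and that of the other members above it. Of the enzymes that carry out the first step, TDO2 had 105 TPM, and IDO1 and IDO2 had no read in any library. AFMID, the next enzyme, had 23.6, 22.9 and 27.7 TPM, and KMO, which hydroxylates kynurenine, had 7.79, 7.85 and 6.79 TPM. The following steps were at lower levels: KYNU, kynureninase, had 0.593, 0.543 and 0.736 TPM from 25 to 34 estimated counts, and HAAO had 0 to 2 estimated counts. QPRT, which takes quinolinate, formed from the product of HAAO, into NAD synthesis, had 45.9, 40.2 and 44.1 TPM.

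Side branches, transport and the receptor of the pathway were also uneven. Of the aminotransferases that can make kynurenic acid, GOT2, which also serves the malate-aspartate shuttle, had 150 TPM ± 10.5 and KYAT3 8.42 TPM ± 1.68, KYAT1 was under 1 TPM (0.474), and AADAT had no read. The chains of the tryptophan transporter differed, with SLC3A2 at 150 TPM ± 4.67 and SLC7A5 at 23.8 TPM ± 1.88. AHR had 3.125, 3.280 and 3.903 TPM, while its partner ARNT had 47.5 TPM ± 3.28. The AHR target genes CYP1B1 and CYP1A1 had 41.1 TPM ± 1.94 and 4.88 TPM ± 1.14. AHRR, the AHR repressor gene of the same list, was under 1 TPM in every library, with 0.603, 0.770 and 0.184 TPM. TAT, an aminotransferase of the liver, was at 1.20 TPM ± 0.165 and CYP2E1 at 2.62 TPM ± 0.410. These were the 2 of 14 hepatocyte genes at 1 TPM or more in every library, 14.3% against 55.3% of protein-coding genes. ALB, the most abundant mRNA of hepatocytes, was at 0.110 TPM.

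**Figure D4:**
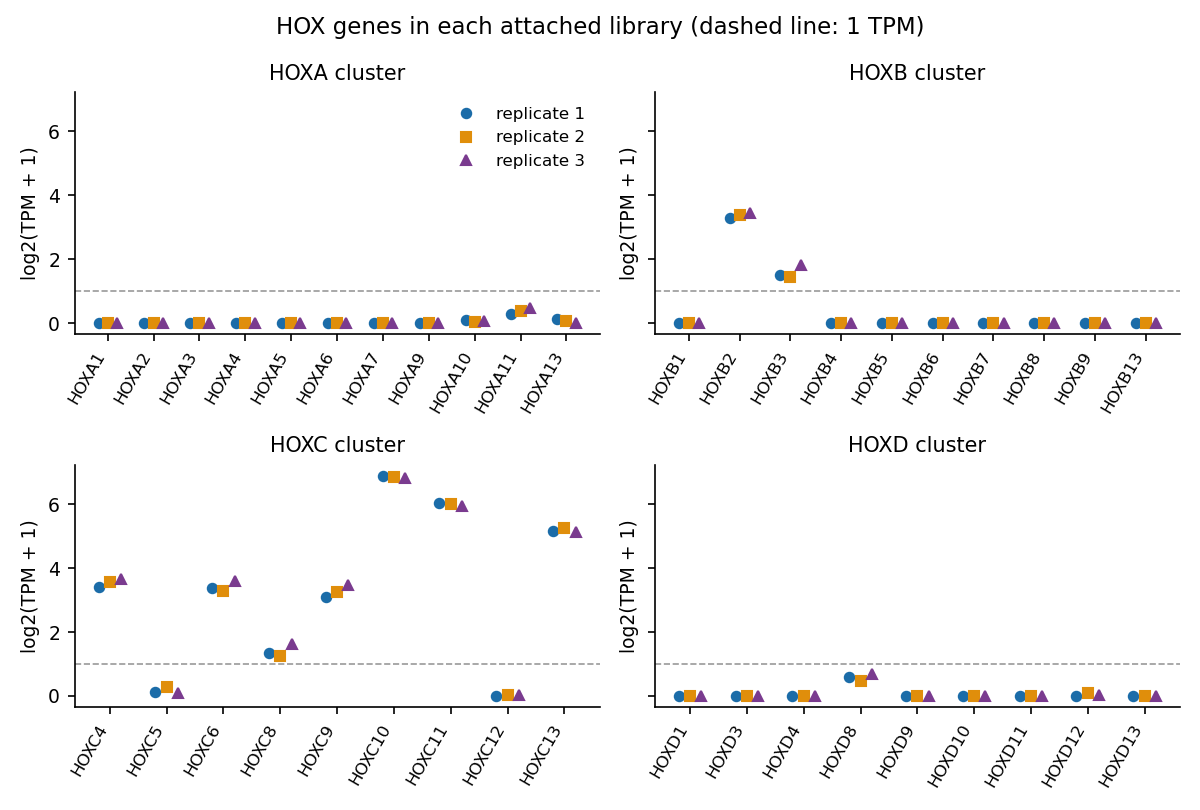
Level of 39 HOX genes as log2(TPM + 1) in the 3 attached libraries, by cluster and in numerical order, 1 symbol per replicate. The dashed line is 1 TPM. Genes above it lie in the HOXC cluster (7 of 9) and the HOXB cluster (2 of 10).

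HOX genes, which record the position of a tissue along the body axis, were expressed mainly from 1 of the 4 clusters. The HOXC cluster on chromosome 12 had 7 of 9 genes at 1 TPM or more in every library, HOXB had 2 of 10, and HOXA and HOXD had none of 11 and none of 9. Of all 39 HOX genes 9 were at this level, 23.1% against 55.3% of protein-coding genes. HOXC genes gave 95.2% ± 0.457 of all HOX TPM. HOXC10 led with 117.8, 115.7 and 113.2 TPM, followed by HOXC11 (62.9 TPM ± 2.29) and HOXC13 (35.6 TPM ± 1.58). HOXC12, which lies between HOXC13 and HOXC11, had 0 to 2 estimated counts per library, so the run of active genes was broken there. HOXC4, HOXC6 and HOXC9 were at 8.73 to 10.7 TPM, HOXC8 at 1.68 TPM and HOXC5 at 0.125 TPM. HOXC4 and HOXC6 span other HOXC genes in the annotation, HOXC5 lying within HOXC4 and HOXC8 and HOXC9 within HOXC6, so the split of reads among these 5 genes is uncertain. In the other clusters HOXB2 had 9.39 TPM ± 0.652 and HOXB3 2.03 TPM ± 0.459, and 23 of the 39 HOX genes had no read.

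Of 6 GATA factors, GATA3 gave 90.8% of the family's TPM, with GATA2 at 90.3 TPM and GATA6 at 5.44 TPM. Of 44 FOX factors 16 were at 1 TPM or more in every library, 36.4% against 55.3% of protein-coding genes. After FOXA1 came FOXM1 (144 TPM ± 6.68), FOXK2, FOXP4 and FOXP1. FOXA2, a close relative of FOXA1, had no read, and FOXA3 was at 0.00656 TPM. Of 19 SOX factors 4 were at this level (21.1%), SOX13, SOX12, SOX4 and SOX9, with 88.3, 59.4, 23.7 and 7.33 TPM. Of 5 AP-2 factors, the 3 named above were at this level and TFAP2D and TFAP2E were not. Of 24 claudins, which seal tight junctions, 7 were at 1 TPM or more in every library (29.2%). CLDN7, CLDN3 and CLDN4 led at 138, 96.1 and 92.2 TPM, while CLDN1 was at 0.00720 TPM. Of 54 keratins 7 were at this level (13.0%) and 27 had no read. Of 16 mucins 4 were at this level, led by MUC20 with 8.67, 10.5 and 14.9 TPM.

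Proliferation genes were high throughout. All 18 of the list were at 10 TPM or more in every library, against 39.5% of protein-coding genes, led by RRM2, a ribonucleotide reductase subunit, with 371, 372 and 337 TPM. The replicative helicase subunits MCM4, MCM7 and MCM5 had 289, 266 and 229 TPM, and MKI67 and CCNB1 had 77.6 and 116.01 TPM. All 22 tumor suppressors and oncogenes of the list were at 1 TPM or more, against 55.3% of protein-coding genes. After CCND1, AKT1 had 550 TPM ± 13.4 and the chromatin remodeler ARID1A 120 TPM ± 12.7. PIK3R1, the regulatory subunit of PI3 kinase, had 76.3, 82.5 and 69.3 TPM, RB1 36.5 TPM and CDKN2A 37.8 TPM. A level of RNA does not show whether the gene carries a mutation.

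Of 19 genes for surface proteins that are targets of antibody drugs, 9 were at 1 TPM or more in every library. This was 47.4% of the list, against 55.3% of protein-coding genes. Beside ERBB2, EPCAM and ERBB3, SLC39A6 had 52.5 TPM ± 2.66 and NECTIN4 had 42.4, 39.7 and 42.3 TPM. F3, MUC1 and VTCN1 lay between 1.33 and 2.58 TPM. CD276 and CD274 were under 1 TPM (0.671 and 0.178), and FOLR1, MUC16 and CEACAM5 had no read.

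Markers of cell types other than epithelium were near or at 0, with single exceptions. Of 8 lymphocyte, 8 myeloid, 5 adipocyte, 5 erythroid and 6 striated muscle genes, none was at 1 TPM or more in every library. Of all protein-coding genes 55.3% were at this level. Among the listed genes CD3E, MS4A1, TYROBP, LEP, HBB and MYOD1 had no read. In the fibroblast list COL1A1, a chain of type I collagen, had 59.3, 55.4 and 66.0 TPM from 4754 to 5789 estimated counts, while its partner chain COL1A2 was at 0.0250 TPM and DCN, LUM, THY1 and PDGFRA had no read. In the neuroendocrine list the glycolytic enzyme ENO2 had 53.9 TPM ± 3.61, SYP was at 0.382 TPM, and CHGA and INSM1 had no read. In the melanocyte list MITF had 5.53 TPM ± 0.472 and TYR, DCT and MLANA had no read. In the endothelial list ESAM had 1.35 TPM ± 0.148 and KDR had no read. Of 18 cancer-testis genes found, MAGEA6 alone (5.56%) was at 1 TPM or more, with 1.399 TPM ± 0.114. MAGEA6 has near-identical copies, so its level is uncertain.

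Across the genome, promoter windows of genes at 1 TPM or more had more CG dinucleotides in the median than those of genes below it. Above 1 TPM the median rose little further. The window of 300 bases defined above was read for 19917 of 19931 protein-coding genes. Genes with no read in any attached library had a median of 6 CG dinucleotides (n = 4701), and those above 0 and under 1 TPM had 16. Those from 1 to 10 TPM, from 10 to 100 TPM and at 100 TPM or more had 26, 28 and 29. The quartiles of the ranges from 1 TPM upward were 17 to 34, 22 to 36 and 22 to 37. In the same order of levels a TATAAA match was in 19.7%, 11.4%, 5.87%, 3.93% and 6.37% of windows, against 9.67% of all windows, so the share was lowest from 10 to 100 TPM. A GC box was in 34.6%, 52.7%, 70.4%, 77.7% and 78.2%, against 61.4% of all. Over all windows CCAAT was in 36.0% and TGTTTAC in 2.42%. These are descriptions across genes, which share base composition by region and are not independent.

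**Figure D5:**
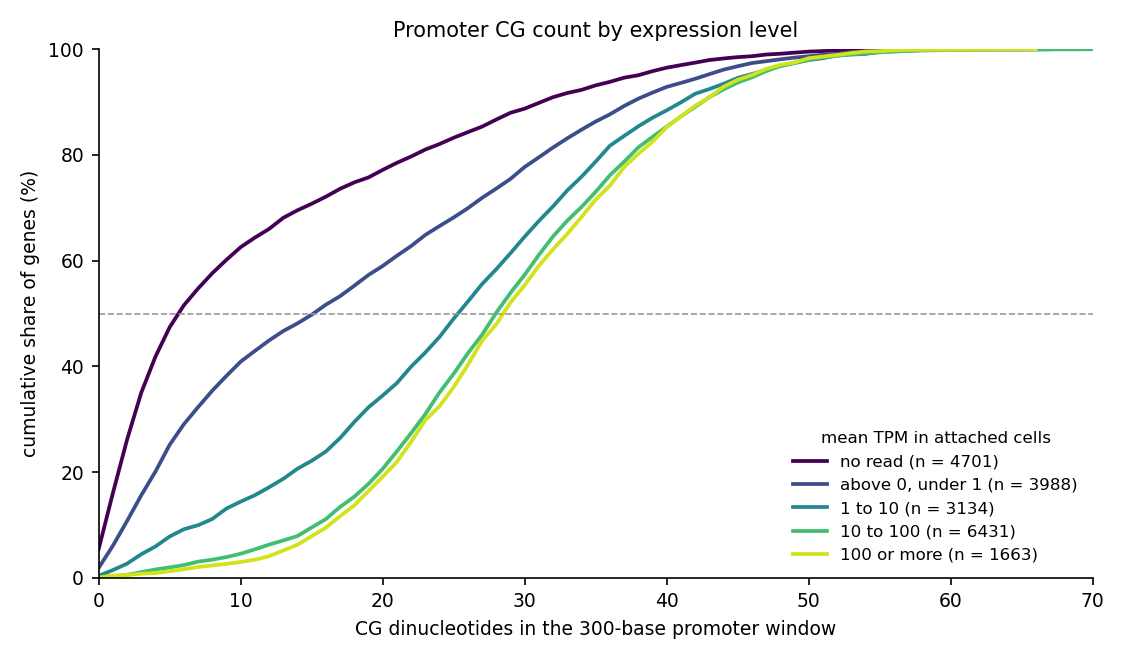
Cumulative share of protein-coding genes (%) against the number of CG dinucleotides in the 300-base promoter window, 1 line per range of mean TPM in the 3 attached libraries. The lines cross the dashed level of 50% near the medians of 6, 16, 26, 28 and 29 CG dinucleotides, in order of rising TPM.

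Single genes lay far from the median of their range in both directions. TDO2 (105 TPM) had 1 CG dinucleotide in the window shown above, and AGR2 (820 TPM) had 6. KIT, with no read, had 38 CG dinucleotides. ESR1, with 0 to 2 estimated counts, had 17, close to the median of 16 for genes above 0 and under 1 TPM. The windows of KIT and ESR1 are shown to set beside those of the expressed genes, with the same meaning of the capitals.
KIT (chr4:54657707-54658006, plus strand): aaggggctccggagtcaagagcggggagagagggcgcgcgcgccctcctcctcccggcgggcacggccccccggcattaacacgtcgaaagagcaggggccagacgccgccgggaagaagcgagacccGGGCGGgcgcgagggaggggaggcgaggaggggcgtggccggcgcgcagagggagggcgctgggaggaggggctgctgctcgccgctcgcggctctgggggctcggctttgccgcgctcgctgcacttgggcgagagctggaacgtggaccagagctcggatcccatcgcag
ESR1 (chr6:151807432-151807731, plus strand): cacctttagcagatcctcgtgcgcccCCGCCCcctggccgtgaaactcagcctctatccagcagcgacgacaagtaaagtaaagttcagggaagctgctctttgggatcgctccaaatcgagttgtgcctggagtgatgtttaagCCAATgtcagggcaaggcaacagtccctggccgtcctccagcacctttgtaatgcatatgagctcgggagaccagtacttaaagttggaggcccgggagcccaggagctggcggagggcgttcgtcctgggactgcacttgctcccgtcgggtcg
KIT held 1 GC box, and ESR1 held 1 CCAAT box and 1 GC box on the opposite strand. Among the lists, the median number of CG dinucleotides was 31 for proliferation genes, 24 for luminal factors, 8 for the apocrine list and 3 for keratins, and 27 of the 54 keratin windows held a TATAAA match.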

How the data were processed

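RNA from attached MDA-MB-453 cells was sequenced in 3 libraries. Per the labels and the study's methods, reads were trimmed with Trim Galore 0.6.7 and Cutadapt 3.4, aligned with STAR 2.7.9a to GRCh38 and quantified with Salmon 1.10.1. The labels name a SMARTER mRNA kit for the library preparation and the methods another mRNA kit, and neither gives a strand setting. TPM values per transcript were made by the authors with Salmon and deposited with estimated counts, which the authors did not normalize. Salmon divides reads that match several transcripts by a model, so values of overlapping genes, near-identical copies and single transcripts are estimates.

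Here TPM of 236920 transcripts was summed to 59452 gene symbols with the deposited map (Python 3.11.15, pandas 2.3.3), without a filter or pseudocount. Values are given per library or as mean ± SD. With 1 group there was nothing to test, and no p-value was computed. A gene counted as expressed at 1 TPM or more in every library. The summing was tested on simulated data. Gene positions, types and promoter windows came from GENCODE release 44 on GRCh38, which held 60463 of 60664 gene identifiers. The other 6 libraries were not used here.

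The members, thresholds and 32 gene lists were chosen with earlier results of these data known. Genes named are the 3 markers, the 30 with the highest mean TPM, up to 8 of the highest in each list and members needed to say that a level was low, the 10 highest non-coding genes, the 10 most variable at a mean of 10 TPM or more, and transcripts with 5% or more of TPM for 9 genes. Genes of ranks 31 to 100, list members below the highest 8 that have a value above the threshold (such as CDH1, CD24 and MKI67) and promoters were named after their values were seen. Alternatives changed the scale, the threshold, short transcripts, the summing and the libraries used. Several genes that these rules name are not reported here.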

Additional observations from a re-analysis of the deposited data

How the results depend on the processing

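Each of 8 results was recomputed under the alternatives that applied to it, 72 values in all. In 24 of them 1 library was left out. ERBB2 then had 399 to 404 TPM, FOXA1 326 to 332 TPM and TDO2 102 to 107 TPM. The mitochondrial share was 16.5% to 18.2% and that of the 100 most abundant genes 33.8% to 34.9%. There were 12545 to 12575 expressed genes, with 41 luminal and apocrine and 6 basal members. Leaving out 1 of 3 libraries cannot move a mean by as much as the SD, and such counts cannot fall. These values therefore show the range only and are no test of stability. The count of expressed genes ran from 11380 at a threshold of 2 TPM to 13557 at 0.5 TPM, and the luminal and apocrine count of members at 10 TPM or more, 41 of 66, ran from 38 to 43. Levels moved by more than the SD with the scale. Without the mitochondrial genome FOXA1, ERBB2 and TDO2 had 398, 488 and 127, and the 100 most abundant genes 22.3%. Without transcripts of an effective length under 100 bases FOXA1 and ERBB2 had 343 and 419, the mitochondrial share was 14.6% and that of the 100 genes 32.1%. With counts over the longest transcript the 3 markers had 431, 547 and 93.7, and the shares were 22.8% and 37.3%. With CPM they had 579, 1034 and 113, the shares were 8.19% and 21.4%, and 11 in place of 6 basal members passed 1. These scales differ by construction in how length enters, so a level holds for its scale only. The order ERBB2, FOXA1, TDO2 held under each of them.

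No paired analysis was possible because all 3 libraries belong to 1 group and no test was made. TPM of genes with few reads rests on single counts, and a gene with no read is not shown to be absent below the limit that 3 counts set. No test for an outlying library was run on the 3 libraries.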

Other observations

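Genes typed as protein-coding gave 96.8% ± 0.0826 of TPM in these libraries, and long non-coding RNA genes gave 0.960% ± 0.0225. By transcript, 80.8% of TPM lay in transcripts typed as protein-coding. The study's methods name an mRNA library kit, so these shares describe the libraries and not all RNA of the cells. BCYRN1, a short RNA related to Alu repeats, was listed at 3859, 4110 and 3938 TPM and ranked 17th of all genes, and reads from Alu copies in other RNAs cannot be told apart from it with certainty. Host genes of small nucleolar RNAs followed, with SNHG25 at 522 TPM ± 52.6 and SNHG29 at 374 TPM ± 19.3. SNHG8 was at 198 TPM ± 9.61 and SNHG7 at 169 TPM ± 1.16, together with DANCR at 174 TPM ± 12.1. BCYRN1 rested on 6799 to 7228 estimated counts, SNHG25 on 585 to 665 and SNHG29 on 8502 to 9121. The order of these RNAs thus holds for TPM, which divides by length, and not for counts. The signal recognition particle RNAs RN7SL1 and RN7SL2, which are near-identical, were listed at 360 and 289 TPM, and 1 of the 10 highest non-coding genes, at 228 TPM ± 6.11, has an identifier only. MALAT1, an RNA kept in the nucleus, had 205, 182 and 388 TPM. It was higher in replicate 3, the library with more mitochondrial RNA and more retained-intron transcripts, and the part of these properties in its level was not tested.

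XBP1, the most abundant luminal factor, was divided almost evenly between XBP1-201 (47.0% ± 2.10 of the gene's TPM) and XBP1-202 (46.2% ± 2.11). In GENCODE release 44 these transcripts differ inside by 26 bases, present in XBP1-201 only, at bases 566 to 591 of that transcript. They are the bases that the enzyme IRE1 removes in the unfolded protein response, shown in capitals with 20 bases on each side. The first letters of the gap repeat after it, so its placement is not unique.
XBP1-201: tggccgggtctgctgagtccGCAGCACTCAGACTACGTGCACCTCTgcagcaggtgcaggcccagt
The deposited length of XBP1-202 was 1131 bases, while its GENCODE 44 entry has 1791, so the authors' annotation held another version of this transcript. The division between the transcripts is not read here as a measure of XBP1 splicing.

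GATA3 was divided over 5 coding transcripts, with 33.9%, 32.1% and 19.2% of its TPM for GATA3-202, GATA3-203 and GATA3-201 and 8.35% and 6.35% for GATA3-205 and GATA3-204, whereas KRT18-201 took 95.4% ± 0.203 of KRT18. The 10 most variable genes with a mean of at least 10 TPM were short or present in many copies: H2AC18, RNU6-9, RNU6-3P, RNA5-8SN3, MT-TM, RNA5-8SN2, RN7SK, U1, SNORA21B and F8A3. H2AC18, RNU6-9, RNU6-3P and RNA5-8SN3 had a value above 0 in 1 library each.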
